A study of Homo sapiens with 45 samples.

Results

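The 29 genes described here encode enzymes of cholesterol and fatty acid synthesis, the factors that control these enzymes, and a cholesterol carrier. They were taken by gene symbol from a table of 64485 gene rows, and each of the 29 symbols had a row. By role, 7 act in the mevalonate steps from acetyl-CoA to farnesyl diphosphate and 11 in the steps from squalene synthesis to cholesterol. Another 5 act in control and transport, and 6 make, elongate or desaturate fatty acids. The genes were listed by symbol and not by a rule on measured values, though earlier results of these data were known when they were chosen.

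RNA was measured in 15 human breast cancer cell lines, all labelled wild-type and epithelial, with 3 libraries per line and 45 in all. The wild-type label does not say which mutations a line carries. The L-15 medium was used for the 5 lines whose names start with MDA-MB. RPMI 1640 was used for 8 lines, HCC70, HCC38, HCC1143, HCC1395, HCC1937, HCC1806, HCC1187 and BT-549. BT-20 was the only line in EMEM and Hs578T the only line in DMEM. Insulin was added for BT-20 and BT-549 at 2 µg/mL and for MDA-MB-436, which also received glutathione, at 10 µg/mL. All media held fetal bovine serum, which itself supplies cholesterol and fatty acids, and the serum of the L-15 lines came from another supplier than that of the EMEM and RPMI 1640 lines. The batch labels place the libraries of HCC1143, HCC38, Hs578T and MDA-MB-231 in runs 1 and 2 and those of the other 11 lines in runs 3 to 5. Nothing in the labels tells if the 3 libraries of a line came from separate cultures, and a p-value between lines therefore rests on library spread that may be technical only. Each line is a single cultured population, and a difference between lines can come from any of the features in which they differ.

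Cells make cholesterol from acetyl-CoA through mevalonate, isoprenoids and squalene, and fatty acids from the same precursor through malonyl-CoA. Both routes answer to the membrane-bound SREBP factors, which the genes SREBF1 and SREBF2 encode. When sterols are scarce in the endoplasmic reticulum, SCAP escorts the SREBP proteins to the Golgi for cleavage, and the released part enters the nucleus and switches on the synthesis genes. When sterols are plentiful, INSIG proteins hold SCAP back. The SREBF2 product is known mainly for sterol genes and a product of SREBF1 mainly for fatty acid genes.

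Promoter sequences are shown for the 4 genes whose levels followed the sterol enzymes most closely across lines, and for ELOVL6, which followed them least. RefSeq promoters (GRCh38.p14) were matched for 25 of the 29 genes, and each covers 250 bases before the gene's start and 50 after it. Capitals mark matches to the sterol regulatory element TCACNCCAC and to the CCAAT box, which reads ATTGG where it lies on the other strand. SREBF2 lies at chr22:41832855-41833154 on the plus strand, FDPS at chr1:155308616-155308915 on the plus strand, and DHCR7 at chr11:71448344-71448643 on the minus strand. MVD lies at chr16:88663042-88663341 and ELOVL6 at chr4:110198566-110198865, both on the minus strand.
SREBF2: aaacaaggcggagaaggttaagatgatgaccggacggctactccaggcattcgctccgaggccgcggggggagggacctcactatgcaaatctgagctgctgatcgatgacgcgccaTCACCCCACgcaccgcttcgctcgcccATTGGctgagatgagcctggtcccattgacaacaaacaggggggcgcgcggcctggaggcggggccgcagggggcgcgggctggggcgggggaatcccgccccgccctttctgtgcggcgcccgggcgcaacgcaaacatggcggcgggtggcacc
FDPS: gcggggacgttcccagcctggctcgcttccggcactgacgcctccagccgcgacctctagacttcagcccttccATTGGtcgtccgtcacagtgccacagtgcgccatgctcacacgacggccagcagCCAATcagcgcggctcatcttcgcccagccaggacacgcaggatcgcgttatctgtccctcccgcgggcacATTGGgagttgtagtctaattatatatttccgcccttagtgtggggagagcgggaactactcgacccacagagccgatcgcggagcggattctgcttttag
DHCR7: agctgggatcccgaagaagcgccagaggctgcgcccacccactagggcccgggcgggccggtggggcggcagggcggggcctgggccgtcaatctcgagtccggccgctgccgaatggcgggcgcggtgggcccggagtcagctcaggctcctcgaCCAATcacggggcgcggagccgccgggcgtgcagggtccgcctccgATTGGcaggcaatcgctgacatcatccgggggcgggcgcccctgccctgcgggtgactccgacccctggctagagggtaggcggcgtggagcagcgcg
MVD: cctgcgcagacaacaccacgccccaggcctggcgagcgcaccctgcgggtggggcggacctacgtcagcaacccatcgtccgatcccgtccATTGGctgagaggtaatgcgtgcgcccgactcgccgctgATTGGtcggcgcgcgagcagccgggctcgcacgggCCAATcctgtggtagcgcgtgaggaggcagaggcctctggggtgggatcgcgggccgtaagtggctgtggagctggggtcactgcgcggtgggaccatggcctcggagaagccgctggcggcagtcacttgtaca
ELOVL6: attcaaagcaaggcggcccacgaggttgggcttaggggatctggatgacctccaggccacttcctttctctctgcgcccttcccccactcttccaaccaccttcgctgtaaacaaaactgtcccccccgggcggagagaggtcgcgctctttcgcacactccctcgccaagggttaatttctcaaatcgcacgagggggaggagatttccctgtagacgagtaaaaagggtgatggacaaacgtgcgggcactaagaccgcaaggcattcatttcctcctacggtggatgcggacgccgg

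On either strand, CCAAT was present in 16 of the 25 promoters (64%), against 35.7% of the 27305 promoters in the RefSeq table. By role it was found in 4 of 6 mevalonate genes, 8 of 9 genes of the later sterol steps, 3 of 5 control and transport genes, and 1 of 5 fatty acid genes, namely SCD. FDPS and MVD hold 3 matches each, DHCR7 holds 2, and ELOVL6 holds none. TCACNCCAC was matched in 1 of the 25 promoters (4%), that of SREBF2, where it starts 133 bases before the gene's start, against 1.15% of all promoters. The E-box CACGTG was matched in 4 of the 25 (16%), against 7.43% of all. It does not overlap the other motifs in its letters, and a match is a description of the sequence and not evidence of binding.

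Libraries held 2312138 to 14653677 counts with a median of 6263573, and the 29 genes took 0.121% to 0.424% of them. HCC70 was sequenced deepest, at 8389590 to 14653677 counts per library. Over the 25 genes other than ACACA, FDFT1, LSS and CYP51A1, replicate 2 of Hs578T, the shallowest library, lay a median of -0.53 log2 from its line's mean and replicate 1 lay 0.48 above it. Replicate 3 of BT-549 lay 0.38 above its line's mean, whereas the libraries of the other 13 lines lay between -0.18 and 0.21. Summed counts per 1000000 counts of the library (CPM) of 9 epithelial markers ranged from 104 in BT-549 to 11827 in BT-20, and those of 7 mesenchymal markers from 32.3 in HCC1937 to 8024 in Hs578T. Markers of blood cells (5 genes) summed to 1.32 to 7.28 CPM, of endothelium (5 genes) to 1.77 to 123 CPM, of adipocytes (5 genes) to 0.421 to 22.9 CPM, and of fibroblasts (6 genes) to 3.35 to 3209.8 CPM, the last highest in Hs578T. The epithelial label was therefore not matched by high epithelial markers in every line.

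Of the 29 genes 4 were low per kilobase of exon, and ACACA and FDFT1 had few reads in most lines. ACACA, which makes malonyl-CoA and is the committed step of fatty acid synthesis, had at most 23 counts in a library and averaged 0.0859 CPM per kilobase of exon. No count was assigned to it in any library of HCC1143, HCC1937 or Hs578T. FDFT1, which makes squalene, averaged 0.646 CPM per kilobase, LSS, which closes the sterol rings, 1.01, and CYP51A1, which removes a methyl group from lanosterol, 1.77. The other sterol enzymes lay between 2.14 (MVK) and 65.5 (IDI1) on this scale. Around ACACA, 10 of 11 other protein-coding genes within 500 kb were also under 0.2 CPM per kilobase, and around FDFT1 13 of 16, against 27.5% of protein-coding genes overall. The exceptions were DDX52 (1.28) around ACACA, and CTSB (36.4), NEIL2 (0.701) and MTMR9 (0.495) around FDFT1. Around LSS the number was 2 of 12 and around CYP51A1 1 of 11. Exons of CYP51A1 overlap another annotated gene on the same strand over 79.4% of their length, and that gene had 0 counts. LSS (13 to 125 counts per library) and CYP51A1 (7 to 157) were counted about as often as MVK (17 to 318) and PMVK (10 to 279), which are kept among the other 25. The cause of the low counts was not tested. Counts of called genes per line are given with and without these 4 low genes.

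Every one of the 29 genes differed among the 15 lines (edgeR quasi-likelihood F test with Benjamini-Hochberg adjustment over 20587 genes). This was the rule rather than the exception, since 98.2% of the genes tested did so. From the highest to the lowest line, the level of the 29 genes differed by a median of 9.48-fold, against 11.3-fold over all genes tested. FADS2 had the widest range at 449-fold, leaving aside ACACA, which is at 0 in some lines. TM7SF2 followed at 68.2-fold, FDFT1 at 42.0-fold on few counts, ELOVL6 at 41.9-fold and STARD4 at 36.6-fold. SCAP varied least, with 39.8 ± 2.84 CPM in MDA-MB-453 and 20.8 ± 1.77 CPM in HCC1806 (SD, n = 3 each), a range of 1.92-fold. LSS with 2.75-fold and FASN with 3.28-fold were next.

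Each line was then set against the mean of the other 14 lines, and a gene was called when its adjusted p was under 0.05 and its log2 difference at least 1. Because that mean is taken on the log scale, a log2 difference can be larger than the ratio of mean CPM, and for ACACA, at 0 in 3 lines, it can turn the direction. ACACA was called higher in HCC1806 (1.15 ± 0.38) at 1.05 CPM, where the other lines averaged 1.12 CPM. Over the 435 pairs of gene and line, 76 were called higher, 7 of them ACACA, and 60 lower. Without the 4 low genes 65 were higher and 54 lower. The share of all genes called higher lay between 13.3% and 20.9% in the 15 lines and the share called lower between 9.19% and 22.9%.

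**Figure D1:**
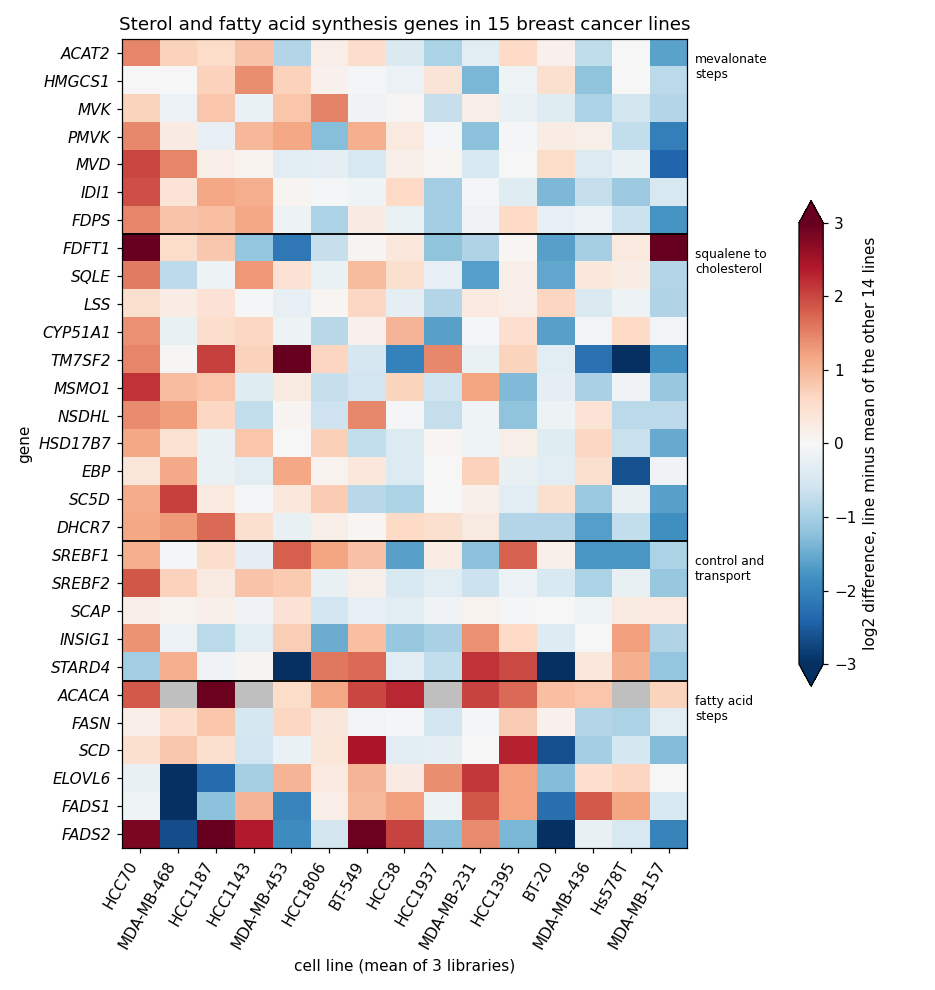
Log2 difference of each gene (rows, grouped by role) in each line (columns, in order of the sterol enzyme mean) from the mean of the other 14 lines. Red is higher and blue lower, the scale ends at 3 in both directions, and grey cells rest on 3 or fewer counts. HCC70 is red over most sterol genes, MDA-MB-157 is blue over most of them apart from FDFT1, and the fatty acid rows follow another order.

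HCC70 had the highest sterol gene levels. Of the 29 genes 19 were called higher in it and 1 lower, where 17.7% of all genes were higher and 22.9% lower. Without the 4 low genes, 16 of 25 were higher, and 18 of 29 were higher within runs 3 to 5. The median log2 difference of the 29 genes was 1.34, against -0.11 over all genes. All 7 mevalonate genes and all 11 genes of the later sterol steps lay above the mean of the other lines, with 5 and 9 of them called. FDFT1 and CYP51A1 were among these 9, and 7 of the other 8 later genes were called. Epithelial markers summed to 9301 CPM and mesenchymal markers to 87.9 CPM in this line, and their part in the result was not tested.

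MDA-MB-157 stood at the other end, with 1 of 29 genes called higher and 13 lower, where 20.0% of all genes were higher and 12.4% lower. Without the 4 low genes, 13 of 25 were lower and 0 higher, and within runs 3 to 5 13 of 29 were lower. Its median log2 difference was -0.90, against 0.07 over all genes, and only 4 of the 29 genes lay above the mean of the other lines. Of the mevalonate genes 4 of 7 were called lower, and of the later sterol steps 5 of 11. Here epithelial markers summed to 325 CPM and mesenchymal markers to 5029.6 CPM, and their part was not tested either.

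Among the mevalonate genes, MVD showed these ends most clearly. Its product decarboxylates mevalonate diphosphate to isopentenyl diphosphate. MVD was measured at 121, 108 and 109 CPM in HCC70 and at 6.98, 6.85 and 5.87 CPM in MDA-MB-157. The 3 libraries of each line lay outside the range of all others, since the next lines were MDA-MB-468 with 79.5 CPM and BT-549 with 22.7 CPM. Its log2 difference from the other lines was 2.00 ± 0.11 (SE) in HCC70 (adjusted p = 1.19e-20) and -2.38 ± 0.20 in MDA-MB-157 (adjusted p = 1.22e-14).

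IDI1, which interconverts the isoprenoid building blocks, had 802, 850.3 and 848 CPM in HCC70. In BT-20, its lowest line, the values were 102, 88.0 and 109.6 CPM. HCC1187 with 507 ± 55.8 CPM and HCC1143 with 479 ± 64.6 CPM were also called higher, whereas HCC1937 and Hs578T joined BT-20 among the lines called lower. FDPS joins isoprenoid units to farnesyl diphosphate and had 467, 465 and 428 CPM in HCC70, against 56.5, 60.1 and 52.2 CPM in MDA-MB-157. Its next line, HCC1143, overlapped HCC70 in none of its libraries, at 359, 340.2 and 423 CPM.

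PMVK, which adds the second phosphate to mevalonate, had the same lines at its ends, with 24.4 ± 0.906 CPM in HCC70 and 2.57 ± 0.736 CPM in MDA-MB-157. Between these ends its order was not that of MVD. BT-549 and MDA-MB-453 were also called higher for PMVK, and HCC1806 and MDA-MB-231 lower. ACAT2, which joins acetyl-CoA units at the start of the route, had 360.2 ± 25.3 CPM in HCC70 and 49.0 ± 2.92 CPM in MDA-MB-157. Part of the exons of ACAT2 (9.2%) overlaps the more highly counted TCP1 on the other strand, and the strand setting of the counting is not given in the sources used here.

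HMGCS1 and MVK were highest in lines other than HCC70. HMGCS1 makes HMG-CoA, and it was highest in HCC1143, with 451, 394 and 372 CPM. In MDA-MB-231, its lowest line, it had 63.7, 73.5 and 68.5 CPM. HCC70 had 167 ± 5.06 CPM, a log2 difference of 0.01 ± 0.14 from the other lines. MVK, which adds the first phosphate to mevalonate, was highest in HCC1806 with 31.7, 30.9 and 36.2 CPM, above every library of the next line. MVK was called in no other line. In HCC70 it had 19.3 ± 2.11 CPM, a log2 difference of 0.67 ± 0.17 (adjusted p = 0.000583), which is under the minimum of 1.

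SQLE, the oxygen-using step that opens the route from squalene to sterols, had 472, 475 and 490.5 CPM in HCC70 and 474, 341 and 413 CPM in HCC1143. The libraries of these 2 lines overlapped, and both lines were called higher. MDA-MB-231 with 55.1, 65.5 and 59.9 CPM and BT-20 with 68.4, 53.2 and 70.3 CPM were called lower, at log2 differences of -1.65 ± 0.14 and -1.56 ± 0.14 (adjusted p = 4.72e-14 and 1.48e-13). These 2 lowest lines overlapped as well.

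MSMO1, which demethylates sterols after CYP51A1, had 476, 496 and 501 CPM in HCC70, above 245, 279.6 and 259 CPM in MDA-MB-231. The log2 difference in HCC70 was 2.16 ± 0.11 (adjusted p = 3.32e-22). It was lowest in HCC1395, with 51.2 ± 3.19 CPM, and in MDA-MB-157, with 57.9 ± 6.24 CPM. The partner of MSMO1 in this demethylation, NSDHL, was as high in BT-549 (115 ± 16.2 CPM) as in HCC70 (114 ± 1.92 CPM), and MDA-MB-468 with 103 ± 17.6 CPM was the third line called higher. HSD17B7, the ketoreductase of the same complex, had 38.3 ± 1.66 CPM in HCC70 and 6.88 ± 0.824 CPM in MDA-MB-157.

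The last steps of the route had other leading lines. SC5D, a desaturase, had 236, 281 and 259.6 CPM in MDA-MB-468, above 129, 147 and 152 CPM in HCC70. In MDA-MB-157 it had 25.7, 21.5 and 25.6 CPM, and in MDA-MB-436, the other line called lower, 33.5 ± 5.00 CPM. DHCR7, a reductase that completes cholesterol, had 131, 126 and 126 CPM in HCC1187 and was also called higher in MDA-MB-468 and HCC70. MDA-MB-157 with 12.9 ± 2.36 CPM and MDA-MB-436 with 14.5 ± 0.475 CPM were called lower. EBP, a sterol isomerase, ranged from 34.3 to 93.5 CPM over 14 lines, with MDA-MB-453 and MDA-MB-468 called higher, and was set apart in Hs578T, with 7.88, 4.80 and 10.9 CPM and a log2 difference of -2.62 ± 0.17 (adjusted p = 4.2e-18).

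TM7SF2, a sterol reductase, had its own pattern. It had 74.8, 72.4 and 79.1 CPM in MDA-MB-453, above every library of the next line, HCC1187, at 36.1, 29.5 and 27.3 CPM. HCC70 and HCC1937 were called higher too. In Hs578T the values were 0.788, 1.80 and 0.729 CPM, and MDA-MB-436, MDA-MB-157 and HCC38 were the other lines called lower. The log2 difference was 3.41 ± 0.11 in MDA-MB-453 and -3.26 ± 0.28 in Hs578T (adjusted p = 6.43e-30 and 8.52e-14).

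FDFT1 was the exception in MDA-MB-157. It had 19.1, 17.2 and 16.6 CPM in HCC70 and 12.9, 10.8 and 16.0 CPM in MDA-MB-157, whereas no other line averaged above 3.06 CPM. These values rest on few reads, at most 197 in a library, in a region where most other protein-coding genes were low too. Whether they follow the level of FDFT1 mRNA was not tested.

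Of the control genes, SREBF2 was the closest to the enzymes. It had 171, 154 and 192 CPM in HCC70, and no library of another line was above 108 CPM. In MDA-MB-157, its lowest line, it had 23.7, 21.7 and 28.7 CPM, which overlapped MDA-MB-436 at 26.9, 25.9 and 29.9 CPM. The log2 difference was 1.87 ± 0.12 in HCC70 (adjusted p = 1.14e-18) and -1.13 ± 0.17 in MDA-MB-157 (adjusted p = 1.49e-07). No other line was called for SREBF2.

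SREBF1 was distributed otherwise. It had 96.9, 88.1 and 103 CPM in MDA-MB-453 and 104, 89.4 and 87.0 CPM in HCC1395, which overlapped. HCC1806 with 64.4 ± 10.4 CPM and HCC70 with 59.7 ± 5.37 CPM were also called higher. Hs578T, MDA-MB-436, HCC38 and MDA-MB-231 were called lower, with means between 9.08 and 13.4 CPM. SCAP was called in no line.

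INSIG1, the sterol-responsive brake on SCAP, was called higher in MDA-MB-231 (208 ± 32.4 CPM), HCC70 (203 ± 9.55 CPM) and Hs578T (189 ± 57.5 CPM), whose libraries overlapped. HCC1806 with 32.5 ± 3.69 CPM and HCC38 with 40.9 ± 5.93 CPM were called lower. STARD4, which carries cholesterol between membranes, was called in 10 lines, 6 higher and 4 lower. Its level in MDA-MB-231 was 150.3, 190.3 and 155 CPM, which overlapped HCC1395 and BT-549. In MDA-MB-453 it was 4.16, 4.70 and 4.66 CPM and in BT-20 5.27, 3.80 and 5.99 CPM. HCC70, high for most sterol enzymes, was called lower for STARD4, with 20.6 ± 0.668 CPM and a log2 difference of -1.04 ± 0.15 (adjusted p = 1.07e-07). This value lies just past the minimum of 1, and without replicate 1 or replicate 3 of every line, or within runs 3 to 5 no gene was called lower in HCC70.

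**Figure D2:**
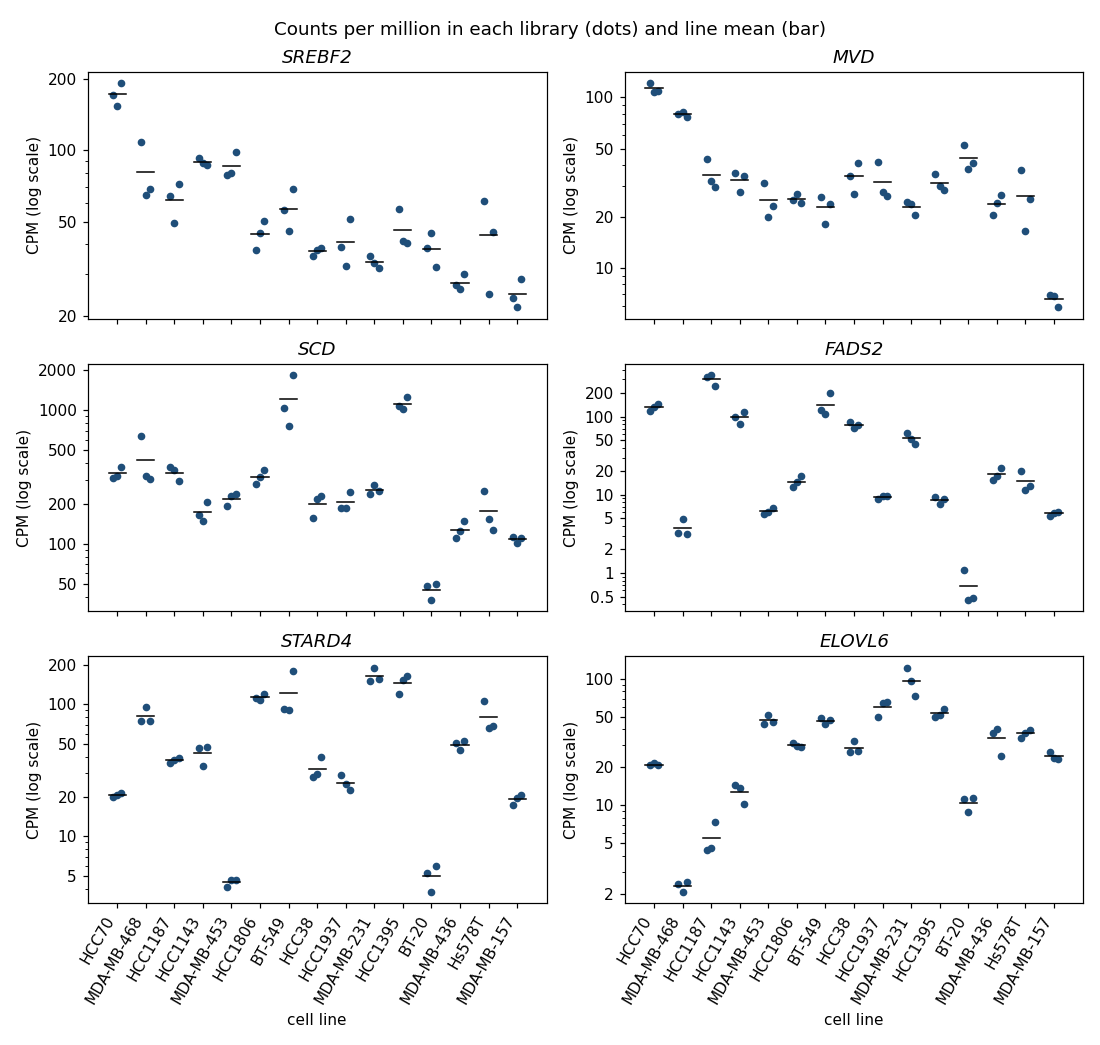
CPM on a log scale in each of the 45 libraries (dots, 3 per line) with the line mean (bar) for 6 genes, lines in order of the sterol enzyme mean. SREBF2 tends to fall from left to right. MVD, which is itself part of that mean, has its ends at 113 CPM in HCC70 and 6.57 CPM in MDA-MB-157. Between them MVD shows no steady fall, with 35.1 CPM in HCC1187 and 43.9 CPM in BT-20. SCD, FADS2, STARD4 and ELOVL6 do not keep that order.

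The fatty acid genes differed in their leading lines, with FASN, FADS2 and ACACA highest in HCC1187, ELOVL6 and FADS1 in MDA-MB-231, and SCD in BT-549. FASN, which builds palmitate, was the least variable of them and was called in no line. It ranged from 82.6 ± 12.2 CPM in HCC1187 to 25.2 ± 9.99 CPM in Hs578T. SCD, which puts the first double bond into stearate and palmitate, had 1047, 766 and 1826 CPM in BT-549 and 1067, 1023 and 1248 CPM in HCC1395. No library of another line was above 644 CPM. In BT-20 SCD had 47.9, 38.1 and 49.5 CPM, below every library of MDA-MB-157, the next line, at 108 ± 5.71 CPM. The log2 differences were 2.45 ± 0.13 in BT-549, 2.31 ± 0.13 in HCC1395 and -2.64 ± 0.22 in BT-20 (adjusted p = 3.42e-21, 4.41e-20 and 1.34e-14).

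ELOVL6 extends palmitate to stearate. It had 123, 95.9 and 72.7 CPM in MDA-MB-231 and 2.39, 2.07 and 2.48 CPM in MDA-MB-468, with HCC1187 next lowest at 4.47, 4.62 and 7.35 CPM. None of the libraries of these 3 lines overlapped those of another of the 3. The log2 differences were 2.13 ± 0.10 in MDA-MB-231 and -3.64 ± 0.20 in MDA-MB-468 (adjusted p = 2.07e-23 and 8.46e-21).

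FADS1 and FADS2, the desaturases of polyunsaturated fatty acids, are neighbours on chromosome 11 (GRCh38, 61799625 to 61829318 on the minus strand and 61792980 to 61867354 on the plus strand). Their annotated exons overlap over 490 bases. FADS2 had 319, 339 and 246 CPM in HCC1187, and in BT-20 it had 1.09, 0.456 and 0.473 CPM, from 3 to 7 counts per library. Its libraries in HCC1187 lay above all others, of which the highest was 199 CPM in BT-549, and those in BT-20 lay below all others. BT-549, HCC70, HCC1143, HCC38 and MDA-MB-231 were also called higher, and MDA-MB-468, MDA-MB-157, MDA-MB-453, HCC1395 and HCC1937 lower. Only 3 of the 15 lines were called for neither direction.

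FADS1 was highest in MDA-MB-231 (267, 259 and 291 CPM) and MDA-MB-436 (259.9, 289 and 258 CPM), which overlapped. It was lowest in MDA-MB-468 (9.73, 8.71 and 10.3 CPM), and BT-20 and MDA-MB-453 averaged 18.8 ± 3.66 and 22.5 ± 1.46 CPM. In HCC1187 the paired genes were called in opposite directions, with a log2 difference of 4.10 ± 0.10 for FADS2 and -1.22 ± 0.14 for FADS1 (adjusted p = 3.04e-35 and 2.28e-10). The same held with the signs exchanged in HCC1395, at -1.38 ± 0.17 for FADS2 and 1.21 ± 0.11 for FADS1. Both were lower in BT-20, MDA-MB-453 and MDA-MB-468.

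In BT-20, 4 of the 6 fatty acid genes were called lower (SCD, ELOVL6, FADS1 and FADS2), with 9 of the 29 genes lower in all and 0 higher. The shares of all genes in this line were 11.3% lower and 14.2% higher. Without the 4 low genes, 7 of 25 were lower, and with no fold minimum 14 of 29 were lower and 5 higher. The sum of 5 endothelial markers was highest in BT-20, at 123 CPM. Over 15 lines its log2 value had an r of -0.68 with the mean z-score of the 5 fatty acid genes other than ACACA, and its part in the result was not tested. BT-549 and MDA-MB-231 differed the other way, with 4 of 6 fatty acid genes called higher in each, one of them ACACA on few counts. Of the 29 genes, 7 were higher and 0 lower in BT-549 (13.3% and 10.7% of all genes), and 6 and 0 without the 4 low genes. In BT-549 the number higher was 11 without replicate 2 of every line and 5 without replicate 3, and with no fold minimum 5 genes were lower. In MDA-MB-231 7 of the 29 were higher and 4 lower (15.0% and 10.5% of all genes), and 6 and 4 without the 4 low genes. In MDA-MB-468 3 fatty acid genes were called lower and 4 of the later sterol genes higher, within 6 of 29 higher and 3 lower (14.7% and 9.19% of all genes), none of them a low gene. HCC1395 had 4 fatty acid genes higher, ACACA again among them, and 1 lower, within 6 of 29 higher and 3 lower (14.4% and 17.7% of all genes), and 5 and 3 without the 4 low genes. In HCC1143 6 were higher and 1 lower (18.4% and 11.3% of all genes), in HCC1187 5 and 2 (16.4% and 12.5%), in HCC1806 4 and 2 (15.9% and 13.7%), and in MDA-MB-453 5 and 4 (17.7% and 14.6%). HCC38 had 4 higher and 3 lower (13.8% and 10.2%), Hs578T 3 and 4 (20.9% and 9.56%), HCC1937 2 and 5 (14.5% and 10.8%), and MDA-MB-436 1 and 6 (16.4% and 10.9%). Without the 4 low genes the numbers higher and lower were 6 and 0 in HCC1143, 4 and 2 in HCC1187, 3 and 2 in HCC1806, 5 and 3 in MDA-MB-453, 2 and 3 in HCC38, and 2 and 3 in HCC1937, and those of Hs578T and MDA-MB-436 stayed at 3 and 4 and at 1 and 6. In HCC1937 8 were lower without replicate 1 of every line and 2 without replicate 3. Within the same runs 11 were higher in HCC1143, 2 in HCC1806, 1 in HCC38 and 1 in Hs578T, and 10 were lower in MDA-MB-436.

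Levels of the sterol enzymes varied together across lines only in part, and these relations are given as descriptions without a test. Over 15 lines, 87 of 91 pairs among 14 sterol enzymes (HMGCS1 to DHCR7 without FDFT1, LSS and CYP51A1) had a positive Pearson r, with a median of 0.42 and a range of -0.11 to 0.78. The 5 fatty acid genes other than ACACA had a median r of 0.17 among themselves, with 8 of 10 pairs positive. Between the 2 sets, 41 of 70 pairs were positive, with a median of 0.13. Among the 25 genes without the 4 low ones, the closest pair was ACAT2 and FDPS (r = 0.86), followed by TM7SF2 and SREBF1 (r = 0.82). At the other end were SC5D and FADS1 (r = -0.61).

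SREBF2 had an r of 0.91 and a Spearman rho of 0.84 with the mean z-score of the 14 sterol enzymes over 15 lines. Without HCC1143 and HCC70, the 2 lines farthest from the median of SREBF2, r was 0.85. Over the 11 lines of runs 3 to 5 it was 0.95. For SREBF1 r was 0.53 over 15 lines and 0.38 without Hs578T and MDA-MB-436, its farthest lines. For INSIG1 r was 0.16, and it changed with the lines used, at 0.47 over the lines of runs 3 to 5 and -0.30 without HCC70 and MDA-MB-157. STARD4 had an r of -0.10 (-0.01 over the lines of runs 3 to 5). Of the fatty acid genes other than ACACA, FASN (r = 0.52), FADS2 (r = 0.41) and SCD (r = 0.35) were positive. Without their farthest lines, r was 0.37 for FASN (HCC1187 and Hs578T left out) and 0.61 for SCD (BT-549 and HCC1395 left out). FADS1 (r = -0.34) and ELOVL6 (r = -0.40) were negative, and r of ELOVL6 was -0.15 without HCC1187 and MDA-MB-468, its farthest lines. Between SREBF1 and the 5 fatty acid genes other than ACACA, r ranged from -0.39 to 0.73 (FASN), with a median of -0.03 and 2 of 5 positive.

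Marker sums and depth moved with the sterol mean as well. Its r with the log2 epithelial sum was 0.59, with the mesenchymal sum -0.59, with the fibroblast sum -0.63, and with the log2 depth of the line 0.44 over 15 lines. The part of these in the relation to SREBF2 was not tested.

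Genes most like the sterol enzymes were taken from all genes tested, by Pearson r over 15 lines with the mean z-score of all 17 sterol enzymes. The first was RUSC1-AS1 (r = 0.87), which overlaps FDPS on the other strand over 18.6% of the exons of FDPS and holds 7.47% as many counts. Others among the 10 closest were AC096536.2, MBD2, LINC01176, JTB, ZBED4, LSM4, MELK and NUDT8, with r between 0.83 and 0.87. With the mean of 14 enzymes the order was another, with ZBED4 first (r = 0.88) and RUSC1-AS1 at 0.84, and SREBF2-AS1, PTMA, ZBTB7B and SMPDL3B in place of MBD2, LSM4, MELK and NUDT8. For FASN the closest were DICER1 (r = 0.84), LUC7L2, CSTF3, ZNF443, ZBTB3, DCAF4, PYGO2, INTS11, G3BP2 and SLC5A6, down to r = 0.77.

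In some lines the genes around a member moved with it. Within 1 Mb of SREBF2 (chromosome 22, GRCh38, 41833079 to 41907308), 17 of 46 genes were called higher and 1 lower in HCC70, with a median log2 difference of 0.83. Of all genes, 17.7% were higher and 22.9% lower in this line. In MDA-MB-157, 23 of the same 46 were called lower and 1 higher, with a median of -1.06, where 12.4% of all genes were lower and 20.0% higher. Across the 15 lines, SREBF2 and the mean z-score of these 46 genes had an r of 0.84. For FDPS this r was 0.77, for PMVK 0.74 and for DHCR7 0.71. Around FDPS 18 of 60 genes were higher and 6 lower in HCC70, and 17 were lower and 8 higher in MDA-MB-157. Around PMVK 21 of 58 were higher and 6 lower in HCC70, and 13 were lower and 7 higher in MDA-MB-157. FDPS and PMVK lie within 1 Mb of each other, so their neighbours are partly the same genes.

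Around MVD 17 of 32 genes were lower and 2 higher in MDA-MB-157 (median -1.33). In HCC70 10 of these 32 were higher and 3 lower (median 0.52). Around SQLE 9 of 16 were lower in MDA-MB-231 (median -1.49), where 10.5% of all genes were lower, whereas in HCC70 3 were higher and 3 lower. Around SCD 15 of 30 were lower and 1 higher in BT-20 (median -1.13), where 11.3% of all genes were lower. In BT-549 7 of these 30 were higher and 2 lower (median 0.73), where 13.3% of all genes were higher. In MVK's highest line, HCC1806, 9 of 30 neighbours were higher and 1 lower (median 0.79), where 15.9% of all genes were higher. Around FADS2 15 of 62 were higher and 1 lower in HCC1187, at a median of 0.62, where 16.4% of all genes were higher. Across the 15 lines, FADS2 and the mean z-score of its neighbours had an r of 0.37.

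Some other members did not move with their neighbours, and not every member is named here. Around ACAT2 in MDA-MB-157 (-1.61), 8 of 21 genes were called higher and 1 lower, with a median of 0.98. SREBF1 in MDA-MB-453 differed by 1.80 where its 34 neighbours had a median of -0.51, with 2 called higher and 5 lower. ELOVL6 in MDA-MB-468 differed by -3.64 where its 10 neighbours had a median of -0.04, with 2 called higher and 1 lower. STARD4 in MDA-MB-453 differed by -3.39 where its 13 neighbours had a median of 0.29, with 3 called higher and 1 lower. TM7SF2 in MDA-MB-453 differed by 3.41 where its 87 neighbours had a median of -0.07, with 12 called higher and 9 lower. Of all genes, 14.7% were higher and 9.19% lower in MDA-MB-468, and 17.7% and 14.6% in MDA-MB-453. Copy number was not measured here, and its part in these values was not tested.

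**Figure D3:**
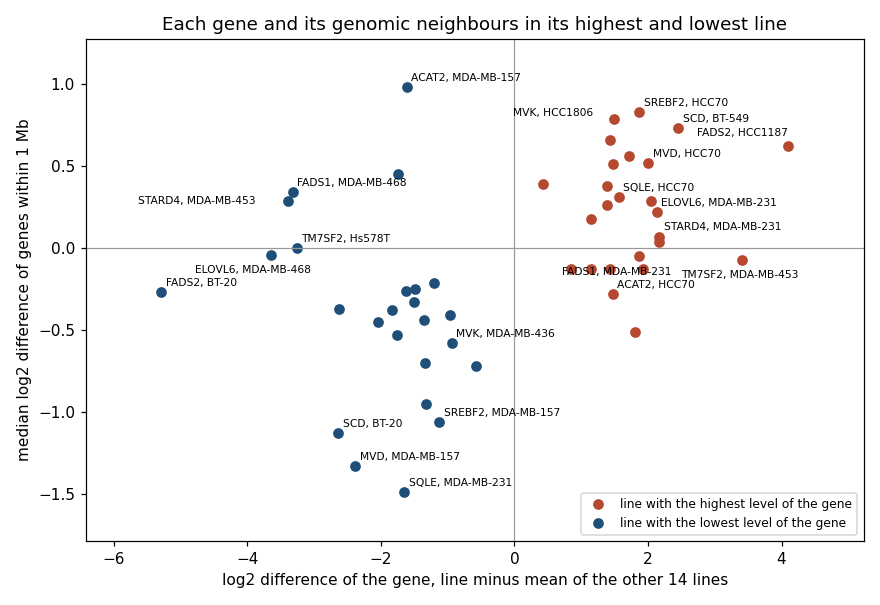
For 25 members, the log2 difference of the gene in its highest (red) and lowest (blue) line from the mean of the other 14 lines (x axis) against the median log2 difference of the genes within 1 Mb in the same line (y axis). SREBF2 in HCC70 and SQLE in MDA-MB-231 lie away from the zero line in the direction of the gene, whereas ELOVL6 in MDA-MB-468 and TM7SF2 in MDA-MB-453 lie near it. ACAT2 in MDA-MB-157 lies away from it in the opposite direction to the gene.

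The culture medium was compared between the 5 L-15 lines and the 8 RPMI 1640 lines, with counts summed per line so that the line is the unit. L-15 supplies galactose and pyruvate where RPMI 1640 supplies glucose. None of the 29 genes passed an adjusted p of 0.05 (edgeR quasi-likelihood test over 20505 genes), and 0% of all genes were called in either direction. At an unadjusted p under 0.05, 1 member was higher and 2 were lower in L-15 lines, where 5.83% of all genes were higher and 5.60% lower. The median log2 difference of the 29 genes was -0.42, with 7 of 29 above 0, against -0.03 over all genes.

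FADS2 averaged 3.74, 5.78, 6.20, 18.3 and 52.9 CPM in MDA-MB-468, MDA-MB-157, MDA-MB-453, MDA-MB-436 and MDA-MB-231, the L-15 lines. The 8 RPMI 1640 lines ranged from 8.71 to 301 CPM with a median of 88.3 CPM, and the groups overlapped. Its log2 difference was -2.51 ± 0.94 (adjusted p = 0.361). DESeq2 called FADS2 lower (log2 difference -2.54, adjusted p = 0.0445) and no other member, and limma-voom called none. For SQLE the median was 105 CPM in L-15 lines and 219 CPM in RPMI 1640 lines, and for EBP 69.1 and 41.5 CPM. Their log2 differences were -0.95 ± 0.41 and 0.66 ± 0.27 (adjusted p = 0.409 and 0.393). SCD had a log2 difference of -1.19 ± 0.57 (adjusted p = 0.445), with medians of 218 CPM in L-15 lines and 327 CPM in RPMI 1640 lines. Over the lines of runs 3 to 5 the median of the 29 genes was -0.47 and the log2 difference of FADS2 -3.61 (adjusted p = 0.411). Medium cannot be told apart from what else the lines of each group share.

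**Figure D4:**
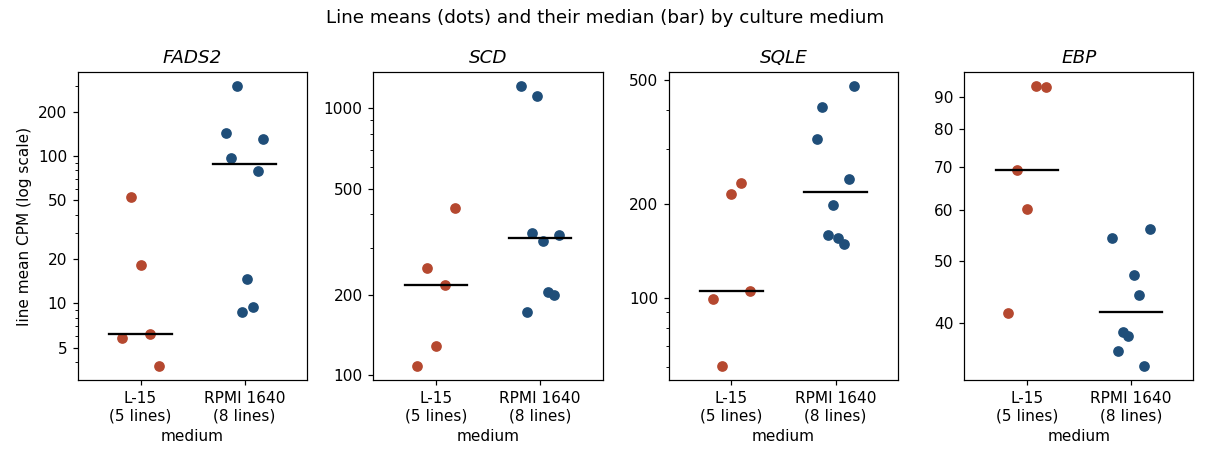
Mean CPM of each line (dots, log scale) with the group median (bar) for 4 genes, in the 5 L-15 lines (left) and the 8 RPMI 1640 lines (right). All 4 pairs of groups overlap, with medians of 6.20 and 88.3 CPM for FADS2 and of 69.1 and 41.5 CPM for EBP.

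Insulin activates SREBF1 in liver, and 3 lines with added insulin (BT-20, BT-549 and MDA-MB-436) were compared with 11 lines without it. Hs578T was left out because the labels do not settle whether its medium held insulin. None of the 29 genes passed an adjusted p of 0.05, and 0% of all 23967 genes did in either direction. The same held for DESeq2 and limma-voom over the members. At an unadjusted p under 0.05, 0 members were higher and 1 was lower, where 1.94% of all genes were higher and 2.37% lower. That gene was IDI1, with 100.0, 150.2 and 220.2 CPM in the insulin lines and a median of 253 CPM (123 to 834) in the other lines (log2 difference -1.15 ± 0.54, adjusted p = 0.999). SREBF1 differed by -0.51 ± 0.69 and FASN by -0.47 ± 0.37. The median of the 29 genes was -0.33, against -0.09 over all genes, and -0.31 over the lines of runs 3 to 5. The 3 insulin lines each grew in a different medium.

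The title of the study concerns breast cancer cells with high MYC, so the slope of each member on log2 CPM of MYC was fitted over 15 line sums. MYC averaged 199.9 ± 48.4 CPM in MDA-MB-231, the highest line, and 17.8 ± 4.01 CPM in MDA-MB-453, the lowest. None of the 29 slopes passed an adjusted p of 0.05 in edgeR's quasi-likelihood test, and 0.00411% of all 24336 genes were called rising and 0.0986% falling. The median slope of the members was -0.09, against 0.01 over all genes. It was 0.15 without HCC70 and -0.09 over the 11 lines of runs 3 to 5. At an unadjusted p under 0.05, 2 slopes were positive and 1 was negative, where 2.56% of all genes had such a positive slope and 3.87% a negative one. STARD4 had a slope of 1.41 ± 0.42 log2 units per doubling of MYC (adjusted p = 0.378), FADS1 of 1.01 ± 0.36 (adjusted p = 0.565), and FDFT1, on few counts, of -1.44 ± 0.48 (adjusted p = 0.508). DESeq2 called STARD4 (slope 1.40, adjusted p = 0.0075) and FDFT1 (slope -1.46, adjusted p = 0.0383). limma-voom on the 45 libraries, with run as a replicate block, called STARD4 (slope 1.33, adjusted p = 0.0468). With 1 line or replicate left out, the edgeR slope of STARD4 lay between 1.08 and 1.52, with an adjusted p of up to 0.937.

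A list of 47 other genes of sterol and fatty acid handling was described beside the members, and 45 of them were tested. In HCC70, 13 of 45 were called higher and 9 lower, with a median log2 difference of 0.56, where 17.7% of all genes were higher and 22.9% lower. In MDA-MB-157 8 were higher and 11 lower, with a median of -0.08, where 20.0% of all genes were higher and 12.4% lower. As shares of the 45 these are 28.9% and 20.0% in HCC70 and 17.8% and 24.4% in MDA-MB-157. In L-15 lines 0 of 45 were called. At an unadjusted p under 0.05, INSIG2, FADS3 and CD36 were higher in L-15 lines, and FABP5, MBTPS1 and TMEM97 lower. FABP5, a fatty acid carrier, had the largest of these differences at -3.46 ± 0.93 (adjusted p = 0.28). On MYC, 1 of 45 was called, INSIG2, another brake on SCAP, with a slope of -1.08 ± 0.18 (adjusted p = 0.023). The 5 genes with the widest ranges were LPL, FABP5, ACSL5, ABCG1 and ELOVL4. LPL was listed at 0 in HCC70 and at 16.1 ± 3.98 CPM in HCC1187, and the others spanned 414-fold (ELOVL4) to 1854-fold (FABP5).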

How the data were processed

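RNA of 15 breast cancer cell lines was measured by RNA-seq with 3 libraries per line. Per the labels, RNA was extracted with an RNeasy kit, 1000 ng was depleted of ribosomal RNA (Ribo-Zero Gold), and ScriptSeq v2 was used for the libraries. Per the submitters' processing notes, bcl2fastq 2.20.0.422, FastQC, MultiQC, Trimmomatic, STAR and featureCounts were used with GRCh38.p12. Their other versions, annotation release, strand setting and treatment of multi-mapped reads were not given in the sources used here. What the authors deposited is a table of raw counts per gene for 64485 gene IDs, of which 55100 had a count, with 2312138 to 14653677 counts per library. Of the IDs 58275 matched GENCODE release 29, and the unmatched ones held 0.0785% of counts. All 29 members passed the filter on low counts in the comparison of the lines.

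Genes with at least 10 counts in enough libraries (filterByExpr, total of at least 15) were tested with edgeR 4.0.16 in R 4.3.3, using TMM scaling, the quasi-likelihood F test and Benjamini-Hochberg adjustment over all genes tested at 0.05. Calls of a line against the mean of the other 14 also needed an absolute log2 difference of 1. A log2 difference is given with its standard error (SE), derived from the F statistic, and levels are counts per 1000000 (CPM) with TMM scaling as mean ± SD. Correlations across lines use log2 CPM with a prior count of 2. For medium, insulin and MYC, counts were summed per line, so that a line counts once. Neighbours are genes within 1 Mb. The scripts were tested on simulated data.

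All 29 members are accounted for. The genes most like the sterol enzymes or FASN are the 10 with the highest r, and of the other pathway genes those that passed and the 5 with the widest ranges are named. A result that falls under these rules is not reported here. Members, lists and comparisons were chosen with earlier results of these data known. The alternatives were DESeq2 1.42.0, its size factors, limma 3.58.1 (voom) with line as a correlated block, no filter, no fold minimum, each replicate or line left out, medium or insulin as a covariate, values within the same set of runs, and the run as a replicate block. The values without the 4 low genes (ACACA, FDFT1, LSS and CYP51A1), and the mean over 14 instead of 17 sterol enzymes, were added after seeing the data. The batch labels give the run, which follows the replicate number in 11 lines (runs 3, 4 and 5 hold replicates 1, 2 and 3), so these numbers mark a shared batch. Deviations from the line mean had a median r of 0.06 over 165 library pairs of the same run and -0.03 over 330 pairs of different runs (runs 3 to 5), and of 0.03 (26 pairs) and -0.03 (28 pairs) in runs 1 and 2.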

Additional observations from a re-analysis of the deposited data

Results flagged for a closer look

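Among the 8 RPMI 1640 lines, HCC70 stood apart from the rest for a pair of members. MVD was at 6.82 log2 CPM in HCC70, against 5.13 in the nearest line, a gap of 0.73 of the whole range. FDFT1 was at 4.16 log2 CPM in HCC70, against 1.74 in the nearest line, a gap of 0.59 of the range, on few counts. These were the 2 flags over 58 groups of lines examined, where chance flags about 1 in 20 groups.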

How the results depend on the processing

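All 29 members differed among the 15 lines, and 28 to 29 did with 1 replicate number or library left out. Of 638 alternative values for members in their highest or lowest line, 635 kept their direction and side of the threshold. SCAP in MDA-MB-453 (0.43) lost its adjusted p without the expression filter (0.33) and without replicate 3 (0.35). ACACA in Hs578T, at 0 counts there, was called lower only by DESeq2 (adjusted p = 0.00208), and its fitted difference is no measure of size. Values of ACACA and FDFT1 rest on few counts, which limits their precision.

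Without a fold minimum more pairs of gene and line were called by construction, 158 higher and 133 lower. In higher and lower counts this gave BT-20 5 and 14, BT-549 14 and 5, HCC1143 13 and 7, HCC1395 12 and 6, HCC1806 10 and 8, HCC1937 4 and 13, HCC38 8 and 10, Hs578T 6 and 13, MDA-MB-157 2 and 22, and MDA-MB-436 8 and 15. It also gave 14 higher in MDA-MB-468, 13 in MDA-MB-453 and 18 in HCC1187, and 7 lower in MDA-MB-231. Within the same set of runs, 11 were higher in HCC1143, 2 in HCC1806, 1 in HCC38 and 1 in Hs578T, and 1 was lower in HCC1187, 0 in HCC70 and 10 in MDA-MB-436. Without ACACA, FDFT1, LSS and CYP51A1, 0 were lower in HCC1143 and 3 in HCC1937, and 2 were higher in HCC38 and 0 in MDA-MB-157.

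Without the expression filter, 2 were lower in HCC1143, 3 in HCC1937 and 0 in HCC70. With the run as a replicate block, 2 were lower in HCC1143 and 0 in HCC70, and the block moved no other line's count by over 1.5 times. DESeq2 called 2 lower in HCC1143 and 8 in HCC1937. It called 1 lower in L-15 lines, and 1 rising and 1 falling with MYC, where limma-voom with the replicate block called 1 rising. With 1 replicate number or library left out, 0 to 1 were higher in BT-20 and 5 to 11 in BT-549, and 1 to 2 were lower in HCC1143, 2 to 8 in HCC1937 and 0 to 1 in HCC70. In HCC1937 8 were lower without replicate 1 and 2 without replicate 3. Apart from the fold minimum, the cause of these changes was not tested. No member was called for medium, insulin or MYC in edgeR with any line or replicate left out.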
